A study of Mus musculus with 28 samples.

Results

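The genes described here are 40 genes of the motile cilium, the beating hair of airway lining cells: axonemal dyneins, radial spoke, central pair, tektin and other axoneme genes, and a few further genes of ciliated cells. They were taken from a list of names, and each name matched 1 of the 35880 gene identifiers in the table. All 40 passed the filter on low counts, as did 14887 genes in all. Messenger RNA had been sequenced from whole-lung homogenates of wild-type male C57BL/6 mice aged 8 to 12 weeks, an inbred laboratory strain. Each exposure lasted 3 hours: carbon black (fine carbon particles) at 10 mg/m3 together with ozone (an oxidant gas) at 2 ppm, called co-exposure below, then ozone at 2 ppm alone, carbon black at 10 mg/m3 alone, and sham. Groups of day 4 had 4 daily exposures and 3 libraries each. Groups of day 1 had 1 exposure and 4 libraries each, which makes 28 libraries in 8 groups.

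Motile cilia cover the multiciliated cells of the airways and drive mucus toward the throat. Their core, the axoneme, is a ring of microtubule doublets around a central pair of microtubules. Outer and inner dynein arms, motors fixed to the doublets, produce the beat, while radial spokes, the central pair and the nexin-dynein regulatory complex coordinate it. Tektins and microtubule inner proteins stiffen the doublets. Dynein arms are put together in the cytoplasm by assembly factors before transport into the cilium. Transcription factors of the RFX family, which bind a promoter motif called the X-box, and the forkhead factor FOXJ1 switch on much of this programme.

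The promoters of 33 of the 40 genes, from 250 bases before to 50 bases after the start, were found in RefSeq sequence of build GRCm38.p6. The others, Rsph1, Cfap53, Tppp3, Lrrc6, Rsph4a, Cfap54 and Cfap65, are named only. The motif GTTNCCNNNGNAAC, an X-box written with N for any base and read on both strands, was in 6 of the 33 promoters and in those of 0.936% of 27025 genes. These are shown because they carry the whole motif, given in capitals, 5′ to 3′ along the gene's strand. On day 4, Spag16, Hydin, Cfap44 and Cfap61 did not pass the threshold after any exposure, while Ak9 and Tekt4 rose after co-exposure. Hydin fell after ozone on day 1.
Spag16 (chr1:69826834-69826913, plus strand): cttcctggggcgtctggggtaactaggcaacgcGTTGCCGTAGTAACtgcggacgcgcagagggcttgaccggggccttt
Hydin (chr8:110266923-110266976, plus strand): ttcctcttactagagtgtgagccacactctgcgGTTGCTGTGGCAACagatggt
Cfap44 (chr16:44394739-44394798, plus strand): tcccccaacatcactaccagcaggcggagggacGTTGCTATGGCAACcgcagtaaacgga
Cfap61 (chr2:145934776-145934789, plus strand): GTTTCCTTAGCAAC
Ak9 (chr10:41303923-41303936, plus strand): GTTTCCAAGGCAAC
Tekt4 (chr17:25471590-25471603, plus strand): GTTCCTTAGGCAAC

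The left arm of the X-box on its own, GTTGCC on either strand, was in 15 of the 33 promoters (45.5%) and in those of 14.1% of all genes in the RefSeq table. It can lie inside an X-box, and the promoters of Ak9, Cfap44, Hydin, Spag16 and Tekt4 held both. The 4 sequences below are from genes that rose in co-exposed lungs on day 4. They are shown as the stretch around the arm, which is in capitals on whichever strand it was found.
Dynlrb2 (chr8:116504927-116505006, plus strand): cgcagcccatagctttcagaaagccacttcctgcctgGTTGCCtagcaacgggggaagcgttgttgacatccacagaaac
Mlf1 (chr3:67373955-67374034, plus strand): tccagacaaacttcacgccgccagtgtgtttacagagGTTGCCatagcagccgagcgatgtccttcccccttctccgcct
Lrriq1 (chr10:103236323-103236378, minus strand): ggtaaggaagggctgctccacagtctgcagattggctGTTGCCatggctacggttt
Tekt1 (chr11:72361883-72361934, minus strand): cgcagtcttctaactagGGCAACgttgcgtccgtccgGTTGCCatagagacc
Of the 11 genes that rose on day 4 after co-exposure, 10 had a promoter sequence. Of those 10, 7 held the arm, 2 the whole X-box and 1 the forkhead motif TGTTTAC. In Zmynd10 and Tekt4 the arm lay only after the start. The forkhead motif, also on either strand, was in 4 of the 33 promoters, those of Ak7, Cfap43, Mlf1 and Sntn, and in 4.05% of all genes. Whether the genes that rose differed from the others in these motifs was not tested. Each match describes these letters only and is no evidence of binding.

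Levels are given in CPM, the usual per-library normalized count, after scaling with trimmed-mean (TMM) factors. Per kilobase of the longest annotated transcript, the most abundant of the 40 in the 7 sham libraries was Tppp3, at 244 CPM per kb. Tppp3 (chr8:105467493-105471526) encodes a tubulin-binding protein of ciliated cells. The next were Ccdc153 at 78.9, Dynlrb2 at 72.9 and Rsph1 at 35.0 CPM per kb. The lowest were the dynein heavy chain genes Dnah2 at 1.33, Dnah1 at 1.37 and Dnah11 at 1.74 CPM per kb. The spread over the 7 sham libraries ran from a coefficient of variation of 8.76% for Dnah11 to 38.4% for Cfap65.

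Library totals ran from 5.14 to 9.72 M counts (M, mega), so a gene without a single count lies below 0.309 to 0.584 CPM, a limit of 3 counts that covers counting error only. A homogenate averages all lung cells, so fewer ciliated cells and less RNA per ciliated cell cannot be told apart. Foxj1, the defining marker of ciliated cells, was detected in every library. The club cell marker Scgb1a1 was high throughout. Skeletal muscle actin, Acta1, reached 215 CPM in co-exposed replicate 3 and 123 CPM in carbon black replicate 3 of day 4, 269 CPM in ozone replicate 2 and 607 CPM in sham replicate 2 of day 1, and was at most 2.85 CPM in the other libraries. Whether the libraries of a group come from separate mice is not stated in the labels; p-values therefore reflect library-to-library spread, which may be technical.

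In co-exposed lungs on day 4, 11 of the 40 genes were higher than in sham lungs and none was lower by edgeR's quasi-likelihood test, with Benjamini-Hochberg adjustment over all genes tested and a threshold of 0.05. Of all genes tested, 17.7% were higher and 16.3% lower in that comparison. The 11 genes were Zmynd10, Dynlrb2, Rsph1, Rsph9, Cfap52, Lrriq1, Tekt4, Tekt1, Mlf1, Cfap206 and Ak9. The median log2 fold change (the difference of log2 levels, where 1 is a doubling) was 0.22 over the 40 genes and 0.00 over all genes, and 29 of the 40 values were positive. Leaving out 1 library moved this median between 0.10 (21 values positive), without co-exposed replicate 3, and 0.40, without sham replicate 2; it was 0.11 without sham replicate 1. By role, 3 of 5 radial spoke genes, 3 of 6 doublet genes, 1 of 2 assembly factors and 4 of 8 other ciliated cell genes rose, and none of the 19 genes of the dynein arms, the ruler and nexin-dynein complex, the tether and the central pair passed. Whether roles differed from each other was not tested.

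**Figure D1:**
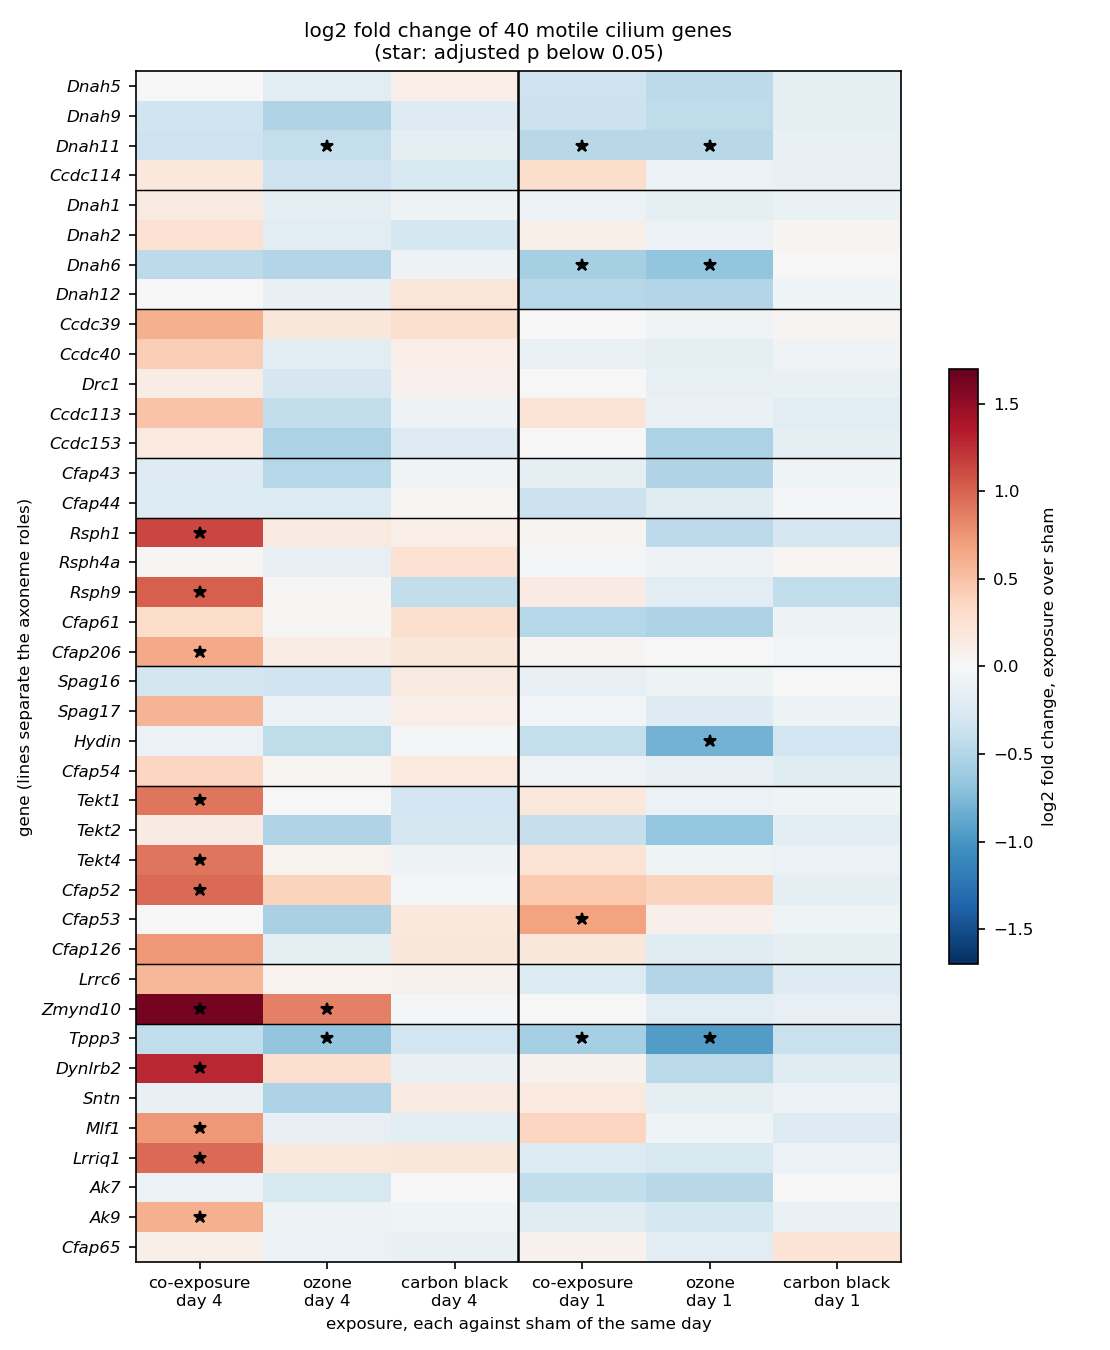
The log2 fold change of each of the 40 genes (rows, ordered by role) for each exposure against sham of the same day (columns), with day 4 on the left. Stars mark an adjusted p below 0.05; 11 stars stand in the co-exposed column of day 4, all of them rises, and 4 in the ozone column of day 1, all of them falls.

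Among the radial spoke genes, Rsph1, which encodes a spoke head protein, measured 63.1, 98.0 and 142 CPM in co-exposed lungs of day 4, 54.4, 48.7 and 50.2 CPM after ozone, 51.9, 39.6 and 57.4 CPM after carbon black and 36.9, 47.2 and 53.3 CPM in sham lungs. All co-exposed libraries stood above all others, with the third at more than double the first. The log2 fold change against sham was 1.14 ± 0.28 (SE), with an adjusted p of 0.00259. Rsph9, another spoke head gene, measured 25.1, 36.3 and 53.8 CPM in co-exposed lungs and 13.3, 18.6 and 24.9 CPM in sham lungs, which left a narrow gap between the groups (1.01 ± 0.29, adjusted p = 0.00918). Cfap206, a spoke-base gene, rose by less, at 44.2, 37.1 and 56.1 CPM in co-exposed lungs, against 25.5, 30.7 and 31.5 CPM in sham lungs (0.65 ± 0.19, adjusted p = 0.0095). Rsph4a, the third spoke head gene, had a log2 fold change of 0.02, and Cfap61 of 0.32; neither passed.

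The doublet genes Tekt1, Tekt4 and Cfap52 rose. Tekt1, a tektin that forms filaments along the doublet wall, measured 36.8, 43.6 and 69.1 CPM in co-exposed lungs, 30.4, 25.3 and 24.1 CPM after ozone, 14.1, 22.4 and 26.1 CPM after carbon black and 20.9, 29.5 and 29.1 CPM in sham lungs. Every co-exposed library was above every other one of that day (0.91 ± 0.27 against sham, adjusted p = 0.0114). Tekt4 measured 16.8, 20.7 and 37.4 CPM in co-exposed lungs and 12.3, 12.1 and 15.1 CPM in sham lungs (0.92 ± 0.26, adjusted p = 0.00773). Cfap52, a microtubule inner protein gene, measured 36.3, 28.1 and 45.9 CPM in co-exposed lungs and 15.9, 21.1 and 19.7 CPM in sham lungs (0.97 ± 0.27, adjusted p = 0.00781). Cfap126, whose product lies near basal bodies and the axoneme, had 38.8, 66.0 and 76.1 CPM in co-exposed lungs, 33.7, 30.1 and 33.1 CPM after ozone, 58.4, 28.4 and 38.1 CPM after carbon black and 26.1, 39.8 and 42.6 CPM in sham lungs. Its co-exposed and sham values overlapped and it did not pass (0.74 ± 0.32, adjusted p = 0.0839).

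Zmynd10, a cytoplasmic factor needed to assemble dynein arms (chr9:107547298-107551319), had the largest change of the 40. It measured 42.7, 49.7 and 74.4 CPM in co-exposed lungs of day 4, 34.6, 35.8 and 27.9 CPM after ozone, 13.4, 17.4 and 22.3 CPM after carbon black and 13.8, 20.6 and 19.9 CPM in sham lungs. The co-exposed libraries were highest, the ozone libraries came next, and neither overlapped sham. It was 3.07-fold higher after co-exposure (log2 1.62 ± 0.25, adjusted p = 2.57e-05) and 1.82-fold higher after ozone (0.86 ± 0.26, adjusted p = 0.0177). Lrrc6, another assembly factor, measured 12.5, 11.4 and 19.3 CPM in co-exposed lungs and 6.01, 11.8 and 11.4 CPM in sham lungs, which overlapped (0.57 ± 0.22, adjusted p = 0.053).

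Dynlrb2, a roadblock-type dynein light chain gene, measured 66.2, 113 and 152 CPM in co-exposed lungs of day 4, 58.8, 50.8 and 54.6 CPM after ozone, 34.0, 35.8 and 53.5 CPM after carbon black and 35.7, 47.6 and 52.1 CPM in sham lungs. The co-exposed libraries again stood above the rest (1.29 ± 0.29 against sham, adjusted p = 0.00156). Lrriq1, a leucine-rich repeat gene, measured 15.7, 17.0 and 22.9 CPM in co-exposed lungs and 7.33, 11.8 and 9.45 CPM in sham lungs (0.96 ± 0.26, adjusted p = 0.00612). Mlf1 and the adenylate kinase gene Ak9 also rose, by 0.73 ± 0.28 and 0.61 ± 0.19 on the log2 scale, with adjusted p of 0.0419 and 0.0131. Sntn, which encodes a protein of the ciliary tip, did not: it measured 14.8, 19.5 and 30.2 CPM in co-exposed lungs, 16.6, 14.4 and 17.8 CPM after ozone, 26.4, 22.0 and 30.0 CPM after carbon black and 17.6, 22.3 and 30.4 CPM in sham lungs. Its groups overlapped, except that the ozone libraries all lay below the carbon black ones.

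**Figure D2:**
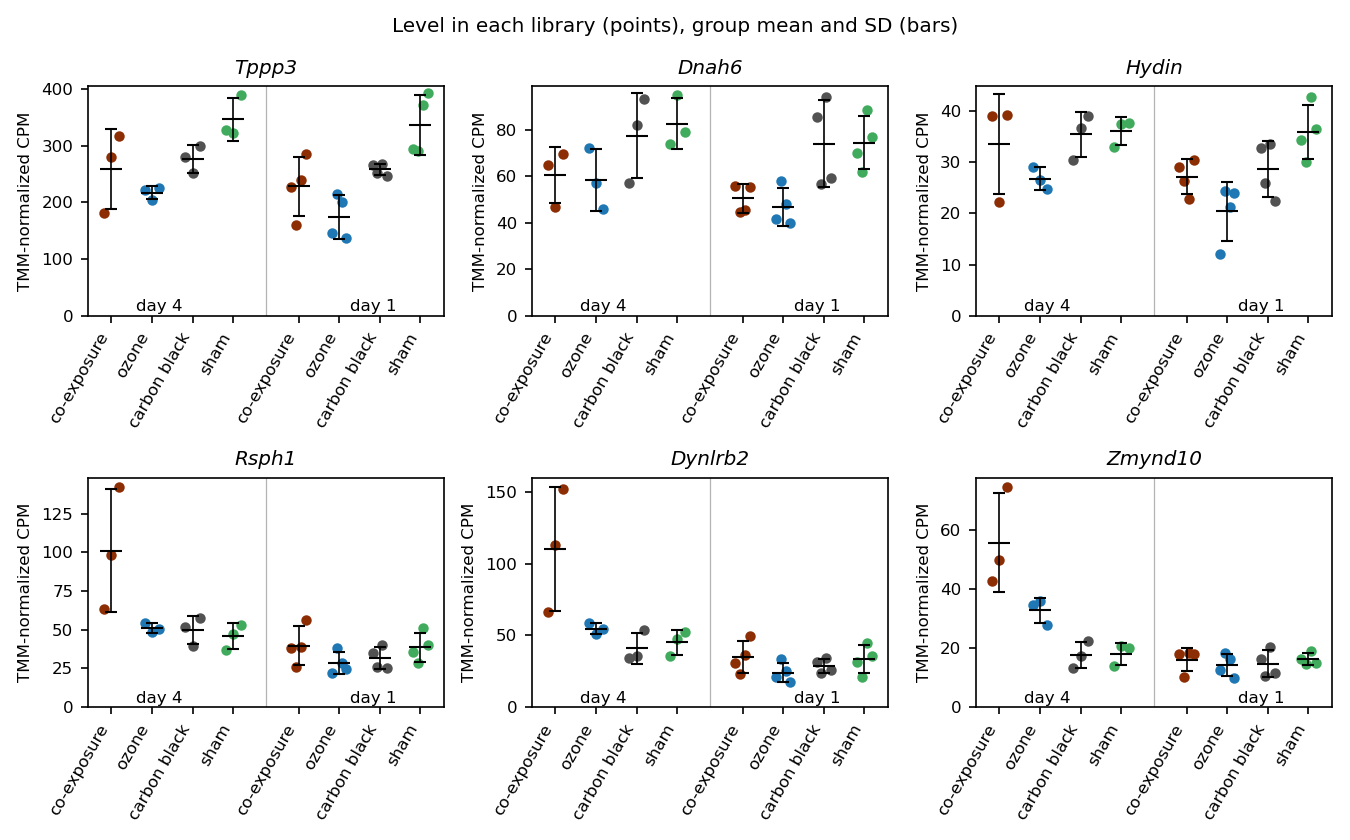
TMM-normalized CPM of 6 genes in every library (points), with the group mean (horizontal bar) and SD, day 4 on the left and day 1 on the right of each panel. Rsph1, Dynlrb2 and Zmynd10 are highest in the co-exposed libraries of day 4, while Tppp3 lies below every sham library of its day in each exposure group.

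The dynein heavy chain genes, which encode the motor subunits, did not pass in co-exposed lungs on day 4, and the median log2 fold change of the 7 was 0.01. Dnah5, an outer arm heavy chain gene, measured 87.5, 71.7 and 91.5 CPM in co-exposed lungs, 78.8, 69.1 and 70.1 CPM after ozone, 65.3, 90.7 and 111 CPM after carbon black and 73.2, 95.6 and 80.2 CPM in sham lungs. Dnah12, an inner arm heavy chain gene, measured 39.0, 27.3 and 32.0 CPM in co-exposed lungs, 35.1, 29.3 and 25.2 CPM after ozone, 24.7, 37.3 and 49.9 CPM after carbon black and 25.3, 36.7 and 35.7 CPM in sham lungs. Both genes overlapped across all groups of day 4. Dnah6, of the inner arm, and Dnah11, of the outer arm, lay below every sham library without passing, at log2 fold changes of -0.45 ± 0.21 (adjusted p = 0.0996) and -0.35 ± 0.14 (adjusted p = 0.06). Every library above every sham library was the pattern of 12 of the 40 genes and of 20.7% of all genes; every library below was that of Dnah6, Dnah11 and Tppp3 and of 19.5% of all genes.

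None of the 5 genes of the ruler and the nexin-dynein complex or the 4 of the central pair passed, although all 5 of the ruler and nexin-dynein complex had positive values (median 0.42). Ccdc39, which with Ccdc40 encodes the molecular ruler that spaces the arms, measured 55.1, 42.9 and 73.7 CPM in co-exposed lungs, 52.7, 46.3 and 29.9 CPM after ozone, 47.4, 41.9 and 47.0 CPM after carbon black and 29.0, 43.3 and 40.3 CPM in sham lungs. Drc1, of the nexin-dynein complex, measured 32.3, 27.7 and 42.3 CPM in co-exposed lungs, 26.1, 25.3 and 25.0 CPM after ozone, 27.3, 33.2 and 37 CPM after carbon black and 29.2, 31.8 and 32.4 CPM in sham lungs. Co-exposed and sham libraries overlapped for both, with log2 fold changes of 0.61 ± 0.25 (adjusted p = 0.0606) for Ccdc39 and 0.13 for Drc1. Spag17, a central pair gene, measured 30.6, 41.7 and 49.7 CPM in co-exposed lungs, 23.7, 25.1 and 27.7 CPM after ozone, 32.5, 22.4 and 34.2 CPM after carbon black and 19.7, 34.0 and 28.6 CPM in sham lungs (0.57 ± 0.25, adjusted p = 0.0742). Hydin, a very large central pair gene, measured 39.1, 22.3 and 39.3 CPM in co-exposed lungs, 29.1, 26.5 and 24.7 CPM after ozone, 30.5, 36.8 and 39.1 CPM after carbon black and 32.9, 37.5 and 37.7 CPM in sham lungs. Cfap43, which tethers an inner arm, measured 32.8, 44.3 and 59.9 CPM in co-exposed lungs, 46.7, 35.0 and 32.9 CPM after ozone, 39.8, 46.7 and 65.4 CPM after carbon black and 35.8, 68.1 and 56.3 CPM in sham lungs. For all 3, co-exposed and sham values overlapped.

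These day 4 rises leaned on single libraries. Without co-exposed replicate 3 the count was 4, the genes lost lying between 0.36 (Mlf1) and 0.78 (Cfap52). Without sham replicate 1 it was 6, with Rsph9 at 0.81, Tekt1 at 0.76, Mlf1 at 0.71, Cfap206 at 0.55 and Ak9 at 0.53. Mlf1 also missed without sham replicate 2 (0.64), and Ak9 without sham replicate 3 (0.55). Zmynd10, Dynlrb2, Rsph1 and Lrriq1 passed in every one of the fits that left out a sham or co-exposed library of day 4. A fall was called for 1 of the 40 without sham replicate 3, co-exposed replicate 1 or co-exposed replicate 3. Here and below, unless printed, the share of all genes called in a fit without 1 library is not given. Calls lost or gained in such fits therefore need not be particular to the 40 genes. Co-exposed replicate 3, which was the highest of its group for all 11, was also highest of its group in the basal cell markers Krt5 (0.667, 2.27 and 8.20 CPM) and Trp63 (1.2, 1.56 and 4.46 CPM), and held the muscle actin given above. The summed club cell markers were lowest in co-exposed replicate 1, and the group spanned 23750 to 56580 CPM, against 44336 to 58712 CPM in sham lungs. Most of that sum was Scgb1a1, at 17399, 39211 and 42866 CPM in the co-exposed libraries, so it says little of the other club cell markers. The part of these differences in the rises was not tested.

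In ozone lungs on day 4, 1 of the 40 genes rose, Zmynd10, and Tppp3 and Dnah11 fell, where 11.7% of all genes tested rose and 9.07% fell. Tppp3 measured 181, 279 and 318 CPM in co-exposed lungs, 221, 204 and 225 CPM after ozone, 279.5, 251 and 299.9 CPM after carbon black and 327, 323 and 389 CPM in sham lungs. Each exposed library was below each sham library, but against sham it passed after ozone (-0.68 ± 0.19, adjusted p = 0.0123), not after co-exposure (-0.42 ± 0.19, adjusted p = 0.0904) or carbon black (-0.32 ± 0.19, adjusted p = 0.418). Dnah11 measured 17.9, 20.5 and 19 CPM in ozone lungs and 25.5, 28.1 and 22.7 CPM in sham lungs, without overlap (-0.40 ± 0.14, adjusted p = 0.0474). In all, 8 of the 40 genes lay below every sham library, as did 20.6% of all genes, and Zmynd10 alone of the 40 lay above every sham library, as did 22.5% of all genes. These calls were near the threshold: the number of falls was 0 without ozone replicate 2 and 1 without sham replicate 1, 2 or 3 or ozone replicate 3, and Tppp3 was lost without sham replicate 3 (-0.58) or ozone replicate 2 (-0.64). Dnah11 was lost in every fit that left out a sham or ozone library of day 4, except the one without sham replicate 3, at -0.34 to -0.46. Zmynd10 was lost without sham replicate 1 (0.70) and without ozone replicate 1 (0.82) or 2 (0.79). The skeletal and heart muscle markers also differed, with a summed 140 to 193 CPM in ozone lungs and 402 to 751 CPM in sham lungs, and Scgb1a1 did so too (19392, 22730.0 and 20335 CPM, against 36933, 41927 and 50469.9 CPM in sham lungs). Their part in the falls was not tested.

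Set directly against ozone on day 4, co-exposure gave a higher fitted level for all 40 genes, with a median log2 difference of 0.48, yet none passed by edgeR, where 0.0% of all genes passed. At an unadjusted p below 0.05 there were 19 of the 40, against 20.1% of all genes, and DESeq2 called 5 of the 40 and 3.74% of all genes, while limma-voom called none of the 40 and 0.645% of all genes. The 19 became 6 without co-exposed replicate 3, where 33 of the 40 values were positive with a median of 0.33 and 8.91% of all genes were at such a p. Every co-exposed library was above every ozone library for 20 of the 40 genes, as it was for 9.57% of all genes, and the reverse held for none of the 40 and 9.75% of all genes. The largest differences were those of Dynlrb2 (1.01 ± 0.29, adjusted p = 0.0893), Rsph9 (0.99 ± 0.29, adjusted p = 0.0935) and Rsph1 (0.98 ± 0.27, adjusted p = 0.0859). This comparison also ran with transcript length: Spearman's rho was -0.68 across the 40 genes and -0.40 across all coding genes. For transcripts of up to 1500 bases the median was 0.90 over the 40 genes and 0.27 over all coding genes. For those over 10000 bases the medians were 0.19 and -0.11. Without co-exposed replicate 1, edgeR called 14 of the 40 higher, along with 8.46% of all genes. The interaction, which asks whether co-exposure departs from the sum of both single effects on the log2 scale, was past the threshold on day 4 for none of the 40 by edgeR and for 1.37% of all genes. At an unadjusted p below 0.05 there were 13 of the 40 and 23.3% of all genes, and 4 of the 40 and 15.4% without co-exposed replicate 3. DESeq2 called 2 of the 40 and 9.55% of all genes, and limma-voom none of the 40 and 0.94% of all genes. Without co-exposed replicate 1 edgeR called 9 of the 40 and 19.7% of all genes, and without carbon black replicate 3 it called 3 of the 40 and 8.57% of all genes. Its largest value was that of Rsph9 (1.41 ± 0.42, adjusted p = 0.0698). On day 1 it was past the threshold for none of the 40 by edgeR, where 1.46% of all genes passed, and none by limma-voom. It was so for 1 of the 40 by DESeq2, where 3.73% of all genes passed, and for 1 by edgeR without co-exposed replicate 2, where 3.16% passed. At an unadjusted p below 0.05 there were 3 of the 40 and 19.4% of all genes, and 10 of the 40 and 24.3% without co-exposed replicate 2.

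On day 1, 4 of the 40 genes fell after ozone, Tppp3, Hydin, Dnah6 and Dnah11, and none rose, where 4.63% of all genes tested fell and 6.81% rose, and 38 of the 40 log2 fold changes were negative with a median of -0.20. That median was -0.08 without sham replicate 3, -0.31 without sham replicate 2 and -0.38 without ozone replicate 2, and 29 values were negative without ozone replicate 4. Tppp3 measured 146, 215, 201 and 137 CPM in ozone lungs and 293, 290.3, 372 and 392 CPM in sham lungs. All ozone libraries lay well below all sham libraries, and the level was 0.518 times that of sham (-0.95 ± 0.17, adjusted p = 0.000442). Hydin measured 12.0, 24.3, 21.3 and 24.0 CPM in ozone lungs and 34.3, 30.1, 42.7 and 36.6 CPM in sham lungs, again without overlap (-0.81 ± 0.18, adjusted p = 0.00475). Dnah6 measured 41.7, 57.9, 48.0 and 39.9 CPM in ozone lungs and 70.1, 61.9, 88.8 and 77.2 CPM in sham lungs (-0.66 ± 0.18, adjusted p = 0.0185). Dnah11 measured 15.0, 18.3, 17.3 and 18.4 CPM in ozone lungs and 24.5, 21.4, 24.6 and 25.2 CPM in sham lungs (-0.47 ± 0.13, adjusted p = 0.016). Neither gene overlapped sham, and with Tekt2 and Lrrc6 the genes below every sham library were 6, while 9.23% of all genes lay there.

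Tppp3 and Hydin passed in every fit that left out a day 1 ozone or sham library. The count of falls was 2 without ozone replicate 1 and 8 without ozone replicate 2, a library with muscle actin, and 8 again without both day 1 libraries that held it. Dnah6 missed the threshold without sham replicate 3 (-0.57), ozone replicate 1 (-0.61) or ozone replicate 4 (-0.59), and Dnah11 without ozone replicate 1 (-0.41). All 7 dynein heavy chain genes had negative values, with a median of -0.45.

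In co-exposed lungs on day 1, Tppp3, Dnah6 and Dnah11 fell and Cfap53 rose, where 9.09% of all genes tested fell and 10.1% rose. Tppp3 measured 227, 161, 239.8 and 285 CPM in co-exposed lungs, all below the sham values given above (-0.56 ± 0.16, adjusted p = 0.017). Dnah6, at 56.1, 44.7, 45.7 and 55.6 CPM, and Dnah11, at 17.6, 15.2, 18.1 and 18.4 CPM, were likewise below every sham library (-0.56 ± 0.18, adjusted p = 0.0321, and -0.47 ± 0.13, adjusted p = 0.0108). With Dnah12 that made 4 genes, where 10.4% of all genes lay below every sham library. Cfap53, a microtubule inner protein gene, measured 17.6, 15.0, 23.4 and 27.4 CPM in co-exposed lungs and 10.8, 9.34, 16.9 and 14.7 CPM in sham lungs, which overlapped (0.68 ± 0.23, adjusted p = 0.0366). It was lost without co-exposed replicate 3 (0.62) or 4 (0.52) and without sham replicate 1 (0.60) or 2 (0.56). The count of falls was 1 without co-exposed replicate 2 or sham replicate 3 or 4, and 5 without sham replicate 2. Tppp3 was lost without co-exposed replicate 2 (-0.43) or sham replicate 3 (-0.51) or 4 (-0.48), and Dnah6 without these (-0.51, -0.47 and -0.54) or co-exposed replicate 3 (-0.52). Over the 40 genes, 23 values were negative and the median was -0.04, which leaving out 1 library moved between -0.18 (co-exposed replicate 4) and 0.09 (co-exposed replicate 2). Against ozone, co-exposure on day 1 gave no call by edgeR, as for 0.0% of all genes, by DESeq2 or by limma-voom, with 3 of the 40 and 15.7% of all genes at an unadjusted p below 0.05, and 8 of the 40 and 14.5% without ozone replicate 2. The values were positive for 38 of the 40 (median 0.18), and for 28 (median 0.08) without ozone replicate 4.

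Most other genes shown for day 4 overlapped sham on day 1 in most groups. Dynlrb2 measured 31.1, 23.0, 36.7 and 49.3 CPM in co-exposed lungs, 20.8, 33.3, 25.3 and 17.2 CPM after ozone, 31.5, 23.7, 34.4 and 26.2 CPM after carbon black and 31.7, 21.2, 44.6 and 36.0 CPM in sham lungs. Rsph1 measured 38.2, 25.9, 38.7 and 56.3 CPM in co-exposed lungs, 21.9, 38.4, 28.5 and 24.5 CPM after ozone, 35.0, 25.6, 40.3 and 25.6 CPM after carbon black and 35.3, 28.5, 50.9 and 39.9 CPM in sham lungs. Zmynd10 measured 17.9, 10.3, 18.3 and 18 CPM in co-exposed lungs, 12.5, 18.3, 16.2 and 9.95 CPM after ozone, 16.4, 10.4, 20.2 and 11.6 CPM after carbon black and 16.3, 14.5, 19 and 15.0 CPM in sham lungs. None of these genes of the day 4 rise separated from sham on day 1. Tekt1 measured 21.5, 10.8, 25.5 and 25.4 CPM in co-exposed lungs, 15.5, 21.8, 18.8 and 12.6 CPM after ozone, 19.2, 15.6, 20.8 and 14.7 CPM after carbon black and 17.9, 13.1, 22.0 and 20.7 CPM in sham lungs. Cfap126 measured 31.3, 18.8, 32.3 and 45.0 CPM in co-exposed lungs, 19.2, 34.7, 22.7 and 19.3 CPM after ozone, 28.2, 20.6, 30.0 and 21.7 CPM after carbon black and 24.3, 17.1, 42.5 and 27.2 CPM in sham lungs. Sntn measured 16.9, 13.9, 25.5 and 33.3 CPM in co-exposed lungs, 18.1, 22.7, 17.3 and 13.0 CPM after ozone, 21.5, 15.4, 22.1 and 15.9 CPM after carbon black and 21.6, 13.8, 24.1 and 20.5 CPM in sham lungs. In these genes the second co-exposed library was the lowest of its group.

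The same held for Ccdc39 and Drc1, at 32.4, 20.9, 35.1 and 42.2 CPM and 31.4, 18.3, 28.6 and 31.3 CPM in co-exposed lungs. Ccdc39 measured 30.2, 41.9, 32.9 and 20.5 CPM after ozone, 39.1, 28, 38.8 and 29.8 CPM after carbon black and 32.5, 26.3, 37.5 and 34.6 CPM in sham lungs. Drc1 measured 19.6, 33.4, 29.1 and 16.3 CPM after ozone, 27.5, 20.7, 32.1 and 19.5 CPM after carbon black and 24.2, 20.3, 35.1 and 29.4 CPM in sham lungs. Both overlapped sham in every exposure group. Spag17 measured 18.9, 13.3, 24.3 and 28.1 CPM in co-exposed lungs, 15.0, 23.4, 20.3 and 15.8 CPM after ozone, 23.3, 19.6, 23.0 and 16.6 CPM after carbon black and 20.1, 15.4, 28.7 and 23.1 CPM in sham lungs. Cfap43 measured 35.6, 23.5, 44.0 and 51.3 CPM in co-exposed lungs, 32.1, 41.7, 27.4 and 18.6 CPM after ozone, 45.6, 32.8, 51.7 and 33.2 CPM after carbon black and 37.2, 30.6, 54.7 and 48.7 CPM in sham lungs. These genes overlapped sham as well, with ozone replicate 2 the highest of its group for both. Dnah5 measured 62.1, 63.8, 68.3 and 64.3 CPM in co-exposed lungs, 49.4, 77.5, 61.7 and 53.1 CPM after ozone, 85.1, 63.0, 90.4 and 58.8 CPM after carbon black and 79.0, 58.3, 98.9 and 94.1 CPM in sham lungs. Dnah12 measured 25.3, 20.2, 25.4 and 28.4 CPM in co-exposed lungs, 21.3, 30.7, 26.0 and 20.5 CPM after ozone, 34.2, 29.0, 40.5 and 28.6 CPM after carbon black and 35.7, 28.5, 40.2 and 34.7 CPM in sham lungs. Both heavy chain genes overlapped sham after ozone, and Dnah12 was just below every sham library after co-exposure without passing (-0.49 ± 0.18, adjusted p = 0.0633). Hydin, at 29.1, 26.4, 22.7 and 30.5 CPM in co-exposed and 32.7, 25.9, 33.6 and 22.4 CPM in carbon black lungs, overlapped sham in both.

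Carbon black alone called none of the 40 by edgeR, DESeq2 or limma-voom on day 4, where 0.208% of all genes tested passed, or on day 1, where 1.66% passed. At an unadjusted p below 0.05 there was none of the 40 on day 4, against 15.2% of all genes, and 1 on day 1, Tppp3, against 10.2% of all genes. Tppp3 measured 266, 253, 267 and 247 CPM in carbon black lungs of day 1, below every sham library (-0.38 ± 0.16, adjusted p = 0.384). It was the only one of the 40 below all sham libraries after carbon black on either day, a position held by 7.65% of all genes on day 4 and 3.58% on day 1. The median log2 fold change of the 40 was -0.02 on day 4 and -0.11 on day 1. Neither sign was stable: leaving out 1 library gave -0.14 (sham replicate 1) to 0.10 (sham replicate 2) on day 4, and -0.21 (carbon black replicate 3) to 0.01 (sham replicate 3) on day 1. Carbon black replicate 1 of day 4 had the lowest total of all libraries, 5.14 M counts, and the lowest TMM factor, 0.902. From replicate 1 to 3 of that group, Cfap52 measured 7.57, 22.4 and 24.5 CPM and Cfap53 29.4, 16.9 and 15.4 CPM. The alveolar type 2 cell marker Sftpb measured 1149, 562 and 573 CPM. Groups of 3 were not tested for outlying libraries.

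Between days, the change from sham was larger on day 4 than on day 1 for Zmynd10, Dynlrb2, Lrriq1 and Ak9 after co-exposure, where 5.44% of all genes tested were higher and 4.78% lower. The differences of log2 fold changes were 1.62 ± 0.34 for Zmynd10 (adjusted p = 0.00325), 1.22 ± 0.39 for Dynlrb2 (adjusted p = 0.0484), 1.2 ± 0.36 for Lrriq1 (adjusted p = 0.031) and 0.82 ± 0.25 for Ak9 (adjusted p = 0.0366). Zmynd10 kept its call in every fit that left out 1 library, while the count was 1 without sham replicate 1 or 3 or co-exposed replicate 3 of day 4 or sham replicate 3 of day 1. It was 2 without co-exposed replicate 2 of day 4, co-exposed replicate 2 or 3 of day 1 or sham replicate 4 of day 1. Day and number of exposures cannot be told apart. After ozone none of the 40 differed between days by edgeR, DESeq2 or limma-voom, where 4.24% of all genes passed by edgeR. At an unadjusted p below 0.05 there was 1, Zmynd10 (1.04 ± 0.35, adjusted p = 0.0916), and 16.7% of all genes. After carbon black none did by any of the 3 tools, where 0.094% of all genes passed by edgeR, and none was at an unadjusted p below 0.05, where 8.38% of all genes were. Sham lungs of day 4 against those of day 1 gave none by any of the 3 tools, where 0.0% of all genes passed by edgeR, and none at an unadjusted p below 0.05, where 9.89% of all genes were, although 35 of the 40 values were positive (median 0.19; 0.10 without sham replicate 2 of day 4 and 0.31 without sham replicate 3 of day 1).

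Fold changes ran with transcript length after co-exposure, but also, in either direction, in comparisons without it. On day 4 the median log2 fold change of all coding genes was 0.26 for transcripts of up to 1500 bases and -0.21 for those over 10000 bases. For the 40 genes the medians of the same classes were 0.73 (10 genes) and -0.05 (8 genes), and Spearman's rho with length was -0.50 across the 40 genes, which share libraries and are not independent, and -0.25 across all coding genes. On day 1 the medians of all coding genes after co-exposure were 0.15 and -0.12 in those classes. After ozone on day 4 the trend was near 0 over all coding genes (rho 0.00). Sham lungs of day 4 against those of day 1 had a rho of -0.31 over all coding genes and -0.45 over the 40. For carbon black against sham, rho over all coding genes was positive, at 0.28 on day 4 and 0.23 on day 1. After ozone on day 1 it was 0.13. Of the exposures against sham, only co-exposure thus had a clearly negative rho over all coding genes (-0.25 on day 4, -0.24 on day 1). A negative rho was also seen between the sham groups, without carbon black or ozone. With the trend on length removed from each library, an alternative chosen after the data were seen, the count of rises after co-exposure on day 4 was again 11, with Spag17 in (0.76 ± 0.29, adjusted p = 0.046) and Mlf1 out (0.54 ± 0.23, adjusted p = 0.0774). Tppp3 then fell as well (-0.60 ± 0.15, adjusted p = 0.00378). The heavy chains did not keep their falls after co-exposure on day 1: Dnah6 was at -0.40 ± 0.20 (adjusted p = 0.162) and Dnah11 at -0.29 ± 0.13 (adjusted p = 0.134), while Tppp3 fell by 0.68 on the log2 scale (adjusted p = 0.000683).

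**Figure D3:**
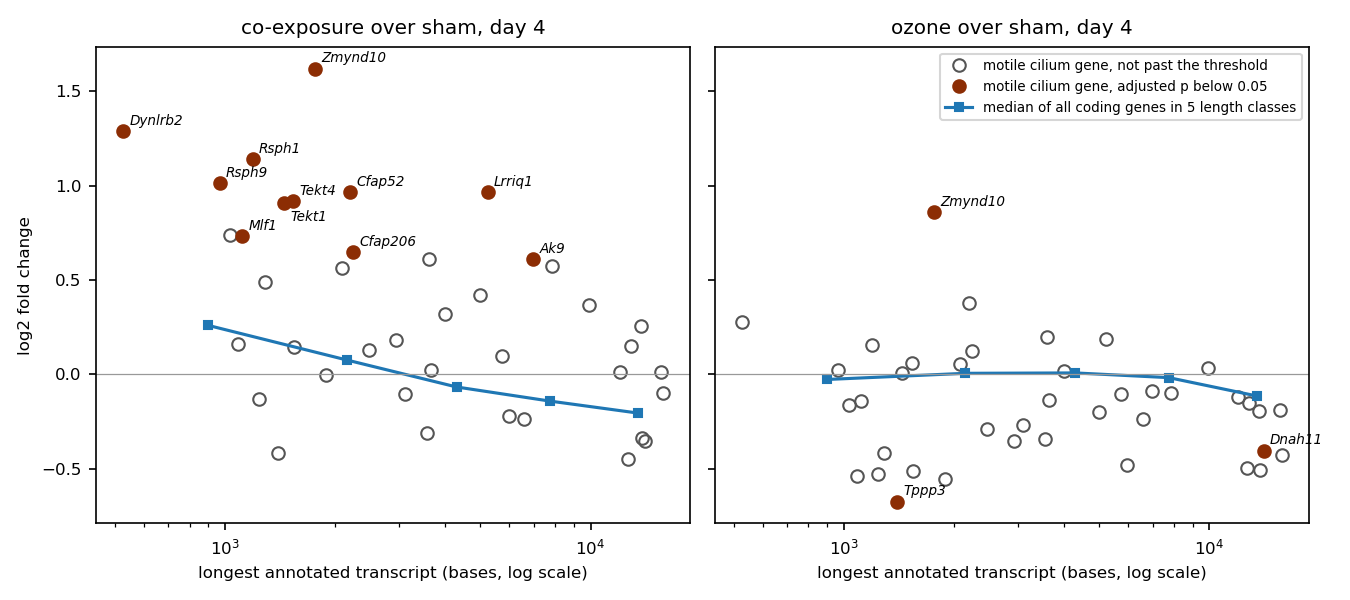
Log2 fold change of the 40 genes against sham on day 4 (vertical axis) by the length of the longest annotated transcript (horizontal, log scale), after co-exposure (left) and ozone (right). Filled points passed the threshold; the line joins the medians of all coding genes in 5 length classes, which run from 0.26 to -0.21 after co-exposure.

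Other genes of the ciliary programme were described from lists set by role. Among 15 regulators of multiciliated cell formation, 10 rose in co-exposed lungs of day 4 and 8 in ozone lungs of day 4, and none fell. Of all genes tested, 17.7% rose and 16.3% fell after co-exposure, and 11.7% rose and 9.07% fell after ozone. Plk4, the kinase that starts centriole assembly, rose by 2.64 ± 0.19 after co-exposure (adjusted p = 9.45e-11) and by 2.16 ± 0.19 after ozone (adjusted p = 5.74e-09). Deup1, which builds the deuterosomes that multiply centrioles, rose by 3.62 ± 0.29 after co-exposure (adjusted p = 1.08e-09) and by 2.72 ± 0.29 after ozone (adjusted p = 1.77e-07). Foxn4 rose by 4.08 ± 0.41 after co-exposure (adjusted p = 3.22e-08), and Mcidas, a switch of the programme, by 3.81 ± 0.49 after ozone (adjusted p = 2.83e-06). Sham levels on day 4 were low, at 0.842, 0.461 and 1.18 CPM for Mcidas and 3.49, 5.53 and 5.48 CPM for Deup1. The Mcidas fold therefore rests on sham values near the limit of 3 counts. Foxj1 measured 209, 231 and 380.4 CPM in co-exposed lungs, 178, 157 and 147 CPM after ozone and 117, 133 and 156 CPM in sham lungs. Co-exposed libraries were above all others (1.01 ± 0.24 against sham, adjusted p = 0.00244), and ozone overlapped sham (0.25 ± 0.24, adjusted p = 0.516).

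Of 44 other axonemal genes tested, 18 rose and 1 fell in co-exposed lungs of day 4, where 17.7% of all genes rose and 16.3% fell. The rises were led by Ropn1l (2.15 ± 0.30, adjusted p = 3.83e-06), Efhc2 (2.05 ± 0.41, adjusted p = 0.000347) and the heavy chain gene Dnah8 (1.12 ± 0.22, adjusted p = 0.000372). After ozone on day 4, 1 rose, Ropn1l (0.98 ± 0.30, adjusted p = 0.0212), and Cfap58 fell (-0.63 ± 0.21, adjusted p = 0.0367), where 11.7% of all genes rose and 9.07% fell. Of 9 further assembly factors tested, 7 rose after co-exposure, Ccdc103 among them (1.75 ± 0.28, adjusted p = 2.41e-05), and 2 rose after ozone, against 17.7% and 11.7% of all genes. Intraflagellar transport carries building blocks along the cilium. Of its 21 genes, 10 rose after co-exposure and 3 after ozone, against the same 17.7% and 11.7% of all genes. Ift22 was at 1.33 ± 0.16 (adjusted p = 6.81e-07) and 0.67 ± 0.16 (adjusted p = 0.00442) in these groups. On day 1, 2 of the 15 regulators rose after co-exposure, where 10.1% of all genes rose: Plk4 and Gmnc (0.77 ± 0.17 and 0.96 ± 0.19). After ozone 3 of the 15 rose, where 6.81% of all genes did: Plk4, Gmnc and Ccno (0.99 ± 0.16, 1.06 ± 0.19 and 1.11 ± 0.31). The other regulators did not pass. Of the 9 assembly factors, Cfap298 and Dnaaf5 rose after co-exposure (0.50 ± 0.13 and 0.36 ± 0.10), where 10.1% of all genes rose. The axonemal list had no rise and 1 fall in each, Dnah8 after co-exposure and Cfap57 after ozone, where 9.09% and 4.63% of all genes fell.

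**Figure D4:**
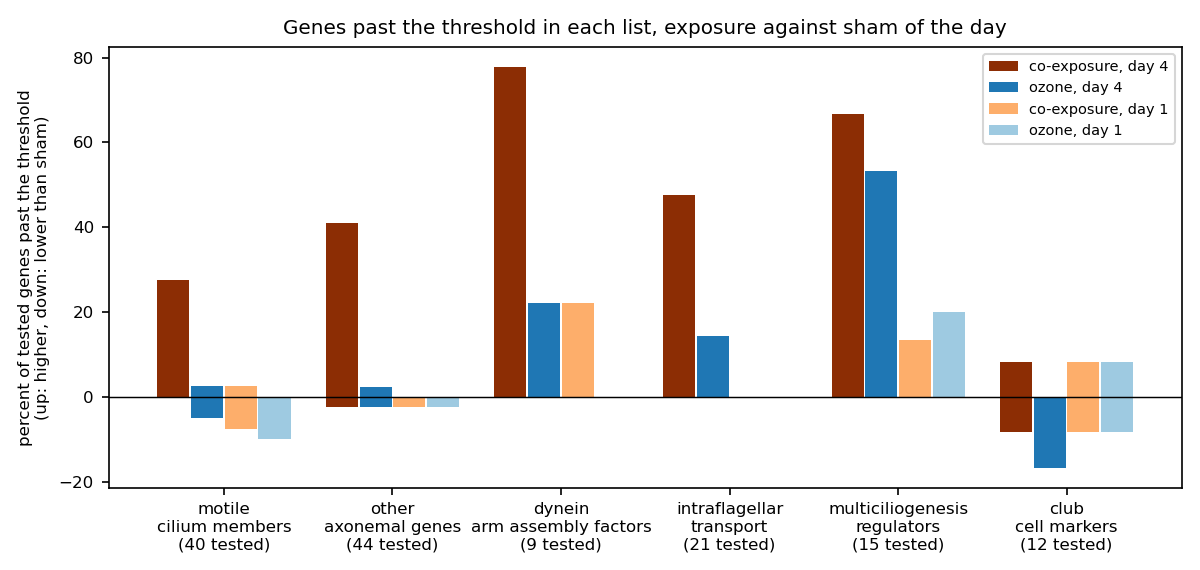
Share of the tested genes of each list that passed the threshold, upward for genes higher and downward for genes lower than sham of the same day. In co-exposed lungs of day 4 the shares higher were 11 of 40, 18 of 44, 7 of 9, 10 of 21 and 10 of 15 genes for the first 5 lists. Of all genes tested, 17.7% were higher there.

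Of 12 club cell markers tested, Hp rose and Cyp2f2 fell in co-exposed lungs of day 4, and Cyp2f2 and Scgb1a1 fell in ozone lungs of day 4 (-1.02 ± 0.18 and -1.05 ± 0.25). Among all genes tested, 17.7% rose and 16.3% fell after co-exposure on day 4, and 11.7% rose and 9.07% fell after ozone. These shares also stand beside the basal and cartilage calls of day 4 below. After co-exposure 9 of the 12 club cell values were positive, with a median log2 fold change of 0.24. Cyp2f2, a cytochrome P450 of club cells, was lower after co-exposure by a log2 fold change of -0.91 ± 0.18 (adjusted p = 0.000395), and Scgb1a1 was at -0.38 ± 0.25 (adjusted p = 0.247). Of 6 basal cell markers tested, Krt15 rose after co-exposure on day 4 (2.55 ± 0.92, adjusted p = 0.0364), and Trp63 was at 0.98 ± 0.52 (adjusted p = 0.146). The summed basal markers were low and uneven, at 9.74, 15.2 and 63.3 CPM in the co-exposed libraries, in rising order. In sham lungs of day 4 they spanned 8.18 to 10.5 CPM. Whether the Krt15 call holds without the highest library was not tested. None of the basal markers passed after ozone on either day. On day 1, Gabrp rose and Cyp2f2 fell among the club cell markers after co-exposure (0.72 ± 0.12 and -0.57 ± 0.16) and after ozone (0.68 ± 0.12 and -0.66 ± 0.16). Among all genes tested, 10.1% rose and 9.09% fell after co-exposure on day 1, and 6.81% rose and 4.63% fell after ozone. Of 9 airway cartilage markers, with a summed 11.3 to 27.1 CPM over the libraries, 3 passed the filter on low counts. The defining cartilage markers Acan, Col2a1 and Matn1 were not among them, at no more than 0.897, 0.733 and 0.141 CPM in any library. Whether the calls below reflect cartilage was not tested. On day 4 Hapln1 rose and Cytl1 fell after co-exposure (2.27 ± 0.45 and -1.14 ± 0.21) and after ozone (1.31 ± 0.46 and -1.22 ± 0.21), and Col11a2 did not pass.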

How the data were processed

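Per the labels' protocols, the authors isolated poly(A) RNA from pulverized whole lungs with an RNeasy kit, built stranded mRNA libraries, sequenced paired ends of 51 bases and quantified them with Salmon 1.1.0. The submitters' processing notes also name build mm10, R 3.6.3 and DESeq2, without their roles. The authors deposited unnormalized estimated counts, 1 row per gene, and 17.7% of them were not whole; they were rounded here. Reads fitting more than 1 transcript are apportioned by Salmon, so closely related genes carry that uncertainty. Symbols came from GENCODE M21 (GRCm38) for 35505 identifiers and were missing for 375.

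All libraries entered 1 edgeR 4.0.16 fit (R 4.3.3; quasi-likelihood F test, robust, 20 residual degrees of freedom) with a mean per group, TMM factors of 0.902 to 1.05 and filterByExpr, and p-values were adjusted over 14887 genes. Alternatives were median-of-ratios scaling, no filter, the compared groups only, a replicate block, DESeq2 1.42.0, limma-voom 3.58.1 and leaving out each library. Removal of length and GC trends, and of 2 libraries with muscle genes, was added after the data were seen. The procedure was checked on simulated counts. The 40 genes and the lists were chosen with earlier results of these data known. Values are printed by library for 14 set genes, the 6 largest calls per comparison and calls against the majority, and for up to 3 genes of smallest p per other list, with Foxj1, Scgb1a1 and Trp63; Acta1 and Krt5 were chosen after their values were seen.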

Additional observations from a re-analysis of the deposited data

Results flagged for a closer look

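Within groups of 4, the highest or lowest library was tested for standing apart by its gap to the nearest of the others, set against the group's range (Dixon's test). Of 160 groups examined 4 did so, where chance gives about 1 in 20. Dnah1, an inner arm heavy chain gene, was at 13.24 CPM in carbon black replicate 2 of day 1, with the other libraries at 15.44 to 15.54 CPM. Cfap44, which tethers an inner arm, was at 43.31 CPM in ozone replicate 2 of day 1, with the others at 28.01 to 30.3 CPM, and that library also held muscle actin. Cfap61, a radial spoke gene, was at 11.42 CPM in co-exposed replicate 1 of day 1, with the others at 6.97 to 7.693 CPM. Zmynd10 was at 10.3 CPM in co-exposed replicate 2 of day 1, with the others at 17.86 to 18.34 CPM.

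The change from sham after co-exposure differed between day 4 and day 1 for 4 genes by edgeR's quasi-likelihood test of that difference. On the log2 scale the difference was 1.625 for Zmynd10 (adjusted p = 0.00325), 1.221 for Dynlrb2 (adjusted p = 0.0484), 1.195 for Lrriq1 (adjusted p = 0.031) and 0.8228 for Ak9 (adjusted p = 0.0366).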

How the results depend on the processing

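None of the changes past the threshold turned round under the alternatives run. With the compared groups alone in the fit, falls numbered 8 after ozone and 6 after co-exposure on day 1, with 0 rises after co-exposure, and 9 after ozone on day 4; 1 gene's ozone response differed between days. Without the low-count filter there were 0 rises after co-exposure on day 1, 1 fall after ozone on day 4 and 2 genes whose co-exposure response differed between days. With the length trend removed there were 0 rises and 1 fall after co-exposure on day 1, 1 fall after ozone on day 4 and 1 fall after co-exposure on day 4; with length and GC trends removed there was 1 fall in each of these. DESeq2 called 5 of the 40 higher after co-exposure than after ozone on day 4 (3.74% of all genes it tested were called), 2 interactions on day 4 (9.55%) and 1 on day 1 (3.73%). Without both day 1 libraries that held muscle genes there were 8 falls after ozone and 7 falls and 0 rises after co-exposure on day 1, and 1 interaction on day 1. Apart from DESeq2, the share of all genes called under each setting is not given beside these counts. A changed count therefore need not be particular to the 40 genes.

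Leaving out 1 library at a time (2 muscle-holding libraries together included), falls on day 1 ranged from 2 to 8 after ozone and from 1 to 7 after co-exposure, where rises ranged from 0 to 1. On day 4, rises ranged from 4 to 14 and falls from 0 to 1 after co-exposure, and rises from 0 to 1 and falls from 0 to 2 after ozone. Co-exposure over ozone on day 4 ranged from 0 to 14, interactions from 0 to 9 on day 4 and from 0 to 1 on day 1, and the differing co-exposure responses from 1 to 6. An arm left with few libraries borrowed its spread from the other groups.

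With both days pooled, same-numbered libraries did not deviate together: the median correlation was 0.014 over 90 pairs, and 8 of 28 libraries correlated best with their own number. Pairs across days were included, so a pairing within a day alone cannot be judged from these values. With the replicate number as a block, rises after co-exposure on day 4 stayed at 11, falls after ozone on day 4 numbered 1 and interactions on day 4 numbered 1. With 3 or 4 libraries a group, genes near 10 CPM rest on few counts, and a fold short of the threshold does not show that levels were equal.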
